A study of Homo sapiens with 183 samples.

Results

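SUIT-2 is an established human pancreatic cancer cell line that the study treats as a model of the classical, gland-like subtype. The experiment described here compared SUIT-2 cells in which the transcription factor KLF5 was targeted by CRISPR-Cas9 with control cells, and it covers 8 of the 183 samples of the series, chosen by their labels. The 4 libraries labelled sgKLF5 carry single-guide RNAs (sgRNAs) against KLF5, and the 4 libraries labelled sgRosa carry sgRNAs against ROSA26. The study describes ROSA26 as a safe harbor locus and uses it as its control. Both groups derive from SUIT-2 cells that stably express Cas9, both received the sgRNA on a lentiviral vector with a green fluorescent marker, and both were collected on day 5 after infection as infected populations. No cloning step is described, all 8 libraries carry the same batch label, and the libraries of a group are described as biological replicates. Each knockout was made with 2 independent sgRNAs, and the labels do not say which of them a library received. Poly-A RNA was sequenced, and the values are TPM, a unit that gives each transcript's share of the RNA after correction for its length. Of 19875 gene names in the table, 12585 averaged at least 1 TPM across these libraries and were tested. The comparison asks which transcripts depend on KLF5 in a classical line, with and without one control library, sgRosa replicate 1, that stood apart from the others.

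KLF5 belongs to the Krüppel-like factors, zinc finger proteins that bind GC-rich and CACCC-type sequences in promoters and enhancers. In the gut and in glandular epithelia it maintains proliferating, undifferentiated cells and the epithelial program, often at regulatory elements shared with factors such as ELF3, GATA6 and the hepatocyte nuclear factors. In pancreatic cancer it is best known as a factor of well-differentiated, epithelial tumor cells.

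KLF5 (GRCh38 chromosome 13, 73054976 to 73077541 in GENCODE) was measured at 175, 145, 216 and 169.8 TPM in sgKLF5 replicates 1 to 4 and 118, 241, 261 and 292 TPM in sgRosa replicates 1 to 4. The lowest value of all 8 belonged to sgRosa replicate 1, and the other sgRosa libraries lay above every sgKLF5 library. Its log2 fold change (sgKLF5 minus sgRosa, on log2(TPM + 1)) was -0.30 (SE 0.27, adjusted p = 0.615) with all 8 libraries and -0.59, adjusted p = 0.0355 without sgRosa replicate 1. The transcript level is a weak check of the labels, since small insertions and deletions made by Cas9 inactivate a protein without having to lower its mRNA.

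TPM sum to the same total in every library, so read depth could not be recovered and no counting error can be given. In all, 11783 genes reached 1 TPM in sgRosa replicate 1 and 12289 to 12802 in each of the other 7 libraries. In sgRosa replicate 1 the cytosolic ribosomal protein genes took 34.4% of all TPM (25.5% to 28.6% elsewhere), the humanin-like MTRNR2L genes took 4.02% (0.628% to 1.82%), the upper quartile of expression was 15.8 TPM (25.5 to 29.9), and the uncharacterized LOC112268284 reached 34988 TPM (52.1 to 801). Its Pearson correlation with the other sgRosa libraries was 0.941 to 0.952, against 0.984 to 0.994 among those 3 and 0.924 to 0.987 among the sgKLF5 libraries. The part of these differences in any result was not tested. Many values are therefore given with and without this library, and a SUIT-2 value given alone is from all 8 libraries. The epithelial markers EPCAM, CDH1, KRT7, KRT8, KRT18 and KRT19 were all expressed, EPCAM at 548 to 571 TPM in sgKLF5 against 463 to 618 TPM in sgRosa. Of the defining markers of other pancreatic cells, CPA1, PNLIP, INS, GCG and SST were listed at 0 in every library, as was the fibroblast gene DCN, while PRSS1 and CELA3A reached 3.57 TPM at most, PTPRC 1.34 and COL1A1 1.85 TPM. The endothelial marker PECAM1 was at 0.443 to 0.895 TPM in sgKLF5 against 0.953 to 4.05 TPM in sgRosa (adjusted p = 0.165), while VWF stayed under 0.2 TPM, and their part in any result was not tested. In a population measured in bulk, fewer cells of a kind and less RNA per cell cannot be told apart.

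An adjusted p under 0.05 (limma with Benjamini-Hochberg adjustment over all genes tested) was reached by 496 genes, or 3.94% of 12585. Of these, 370 genes (2.94%) were higher and 126 (1.00%) lower in sgKLF5. The median log2 fold change over all genes tested was 0.18, so the whole distribution sat slightly above 0. Without sgRosa replicate 1 the median moved to 0.03 and 1239 of 12617 genes passed (9.82%), 837 higher (6.63%) and 402 lower (3.19%). All but 3 of the 496 genes were among them, each in the same direction. With the libraries scaled by the median of ratios the median was -0.05, and 488 genes were higher and 343 lower, so that 58.7% of the calls were upward, against 74.6% without scaling. In 1944 genes (15.4%) all 4 sgKLF5 libraries lay above all 4 sgRosa libraries, and in 249 (1.98%) they lay below. A change of at least 2 on the log2 scale was seen in 36 of the higher and 31 of the lower genes. Because 1 TPM was added before the logarithm, changes of genes with few TPM are understated. The 4 libraries of a group are biological replicates by the study's description, though the labels do not say how they were separated, and the spread behind these p-values includes that between the 2 sgRNAs.

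**Figure D1:**
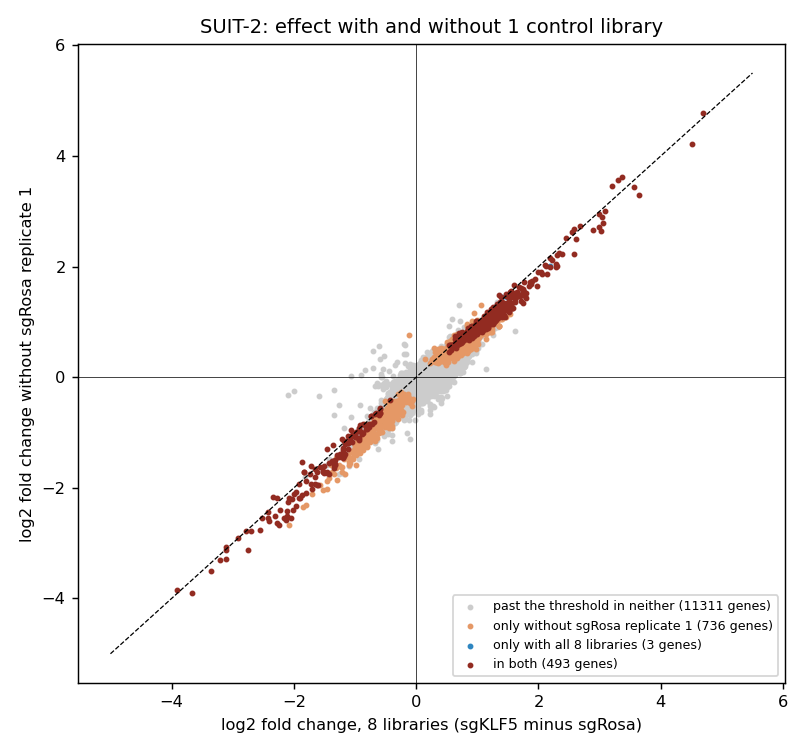
Each point is a gene tested both with all 8 libraries (horizontal axis, log2 fold change sgKLF5 minus sgRosa) and without sgRosa replicate 1 (vertical axis), with the dashed line marking equal values. The 493 genes past the threshold in both fits lie close to the line at either end, and the 736 genes past it only without sgRosa replicate 1 lie mostly below the line.

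The genes that fell furthest, chosen among those whose groups did not overlap, included cell surface, secreted and metabolic products of glandular epithelia. S100P, a calcium-binding protein made by many pancreatic cancers, was measured at 0.33, 0.611, 0 and 1.17 TPM in sgKLF5 replicates 1 to 4 and 24.97, 12.9, 23.4 and 26.7 TPM in sgRosa replicates 1 to 4. The groups were far apart, with one sgKLF5 library listed at 0, and the log2 fold change was -3.92 (SE 0.31, adjusted p = 0.000245) with 8 libraries and -3.84 without sgRosa replicate 1. CEACAM6, a cell surface adhesion glycoprotein, was at 67.7, 79.7, 202 and 199 TPM in sgKLF5 replicates 1 to 4 and 923, 1696, 1877 and 1944 TPM in sgRosa replicates 1 to 4. All sgKLF5 values lay far under the lowest control, sgRosa replicate 1, with a log2 fold change of -3.66 (SE 0.40, adjusted p = 0.0015) and of -3.91 without that control. GPX2, the glutathione peroxidase of the gut epithelium, was at 36.6, 39.3, 54.8 and 65.3 TPM in sgKLF5 replicates 1 to 4 and 377, 316, 385 and 394 TPM in sgRosa replicates 1 to 4. Controls were tightly grouped here, and the log2 fold change was -2.92 (SE 0.19, adjusted p = 0.000116).

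The promoters of these 3 genes are shown because KLF5 is known to bind CACCC-type sequences near gene starts. The 3 were picked by name from the largest falls, and MMP28, DPEP1, FGF19, DHRS9 and SLPI, which fell further than GPX2, are not shown. Each run holds the 250 bases before the RefSeq start site (GRCh38.p14), 5′ to 3′ on the strand of the gene, with the motif CCNCACCC or its reverse complement GGGTGNGG in capitals.
S100P (chr4:6693628-6693877, plus strand): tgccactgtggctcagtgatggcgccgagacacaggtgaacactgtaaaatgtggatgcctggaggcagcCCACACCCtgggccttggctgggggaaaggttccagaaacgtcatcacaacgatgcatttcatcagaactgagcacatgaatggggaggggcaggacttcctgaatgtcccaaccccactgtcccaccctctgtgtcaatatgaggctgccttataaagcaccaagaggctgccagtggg
CEACAM6 (chr19:41755280-41755529, plus strand): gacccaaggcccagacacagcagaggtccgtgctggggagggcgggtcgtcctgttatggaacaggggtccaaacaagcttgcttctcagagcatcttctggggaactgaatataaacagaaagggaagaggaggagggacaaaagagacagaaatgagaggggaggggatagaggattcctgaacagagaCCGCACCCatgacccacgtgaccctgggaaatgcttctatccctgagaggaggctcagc
GPX2 (chr14:64942746-64942995, minus strand): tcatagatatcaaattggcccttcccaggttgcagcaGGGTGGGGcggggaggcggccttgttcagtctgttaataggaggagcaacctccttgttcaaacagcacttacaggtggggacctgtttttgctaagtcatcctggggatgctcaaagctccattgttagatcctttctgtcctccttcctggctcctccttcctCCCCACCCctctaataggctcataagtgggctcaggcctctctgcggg
S100P holds 1 copy, with its first base at -180 from the start site, CEACAM6 holds 1 at -59, and GPX2 holds 2, at -213 and -48. The motif was found on either strand in 15.9% of the 27305 promoters of the table and in 18.5% of those of the 10176 tested genes that had one. Among the lower genes 23 of 90 promoters held it (25.6%), and among the higher genes 55 of 275 (20%). The motif was picked after the expression values were known, and a match describes letters only, not binding.

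Several enzymes and secreted proteins followed. MMP28 (epilysin, a matrix metalloproteinase of epithelia) was at 0.754, 0.638, 2.58 and 1.98 TPM in sgKLF5 replicates 1 to 4 and 16.5, 21.9, 25.6 and 30.7 TPM in sgRosa replicates 1 to 4, DPEP1, a membrane dipeptidase, at 6.41 to 20.1 TPM in sgKLF5 against 94.2 to 129 TPM in sgRosa, and DHRS9, a retinol dehydrogenase, at 0.546 to 1.26 TPM in sgKLF5 against 13.3 to 18.2 TPM in sgRosa. Their log2 fold changes were -3.36 (SE 0.31, adjusted p = 0.000624), -3.21 (SE 0.33, adjusted p = 0.00104) and -3.11 (SE 0.20, adjusted p = 0.000116). SLPI, a secreted inhibitor of neutrophil elastase, went from 264 to 412 TPM in sgRosa to 28.8 to 49.4 in sgKLF5, with a log2 fold change of -3.11 (SE 0.20, adjusted p = 0.000116). ALDH3A1, an aldehyde dehydrogenase, fell by 2.78 on the log2 scale (3.44 to 9.29 TPM in sgKLF5 against 34.97 to 60.2 TPM in sgRosa), and ALOX5, the 5-lipoxygenase of leukotriene synthesis, fell by 2.76 (1.89 to 4.74 TPM in sgKLF5 against 12.3 to 45.1 TPM in sgRosa). HSD17B2, which inactivates estradiol and testosterone, fell by 2.43. None of these groups overlapped, which was a condition of their choice. Each of the genes stayed past the threshold with any single library left out.

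The growth factors FGF19, a hormone of bile acid and glucose control, and FGF3 fell as well, although both were low. FGF19 was at 0.179, 0.661, 1.902 and 2.39 TPM in sgKLF5 replicates 1 to 4 and 11.8, 14.7, 19.99 and 24.7 TPM in sgRosa replicates 1 to 4, a log2 fold change of -3.11 (SE 0.37, adjusted p = 0.00226). FGF3 was at 0.0607 to 0.6299 TPM in sgKLF5 against 5.32 to 7.11 TPM in sgRosa, a log2 fold change of -2.42 (SE 0.19, adjusted p = 0.000245). ID1, an inhibitor of basic helix-loop-helix factors and a target of BMP signaling, was at 23.7, 24.8, 31.8 and 38.98 TPM in sgKLF5 replicates 1 to 4 and 165, 173, 182 and 172 TPM in sgRosa replicates 1 to 4. Its 4 controls differed little, its sgKLF5 libraries were all far lower, and the log2 fold change was -2.52 (SE 0.17, adjusted p = 0.000116). PHACTR3 and VSTM2L completed the 15 largest falls, with log2 fold changes of -2.71 and -2.56. All 15 were chosen among genes whose groups did not overlap.

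**Figure D2:**
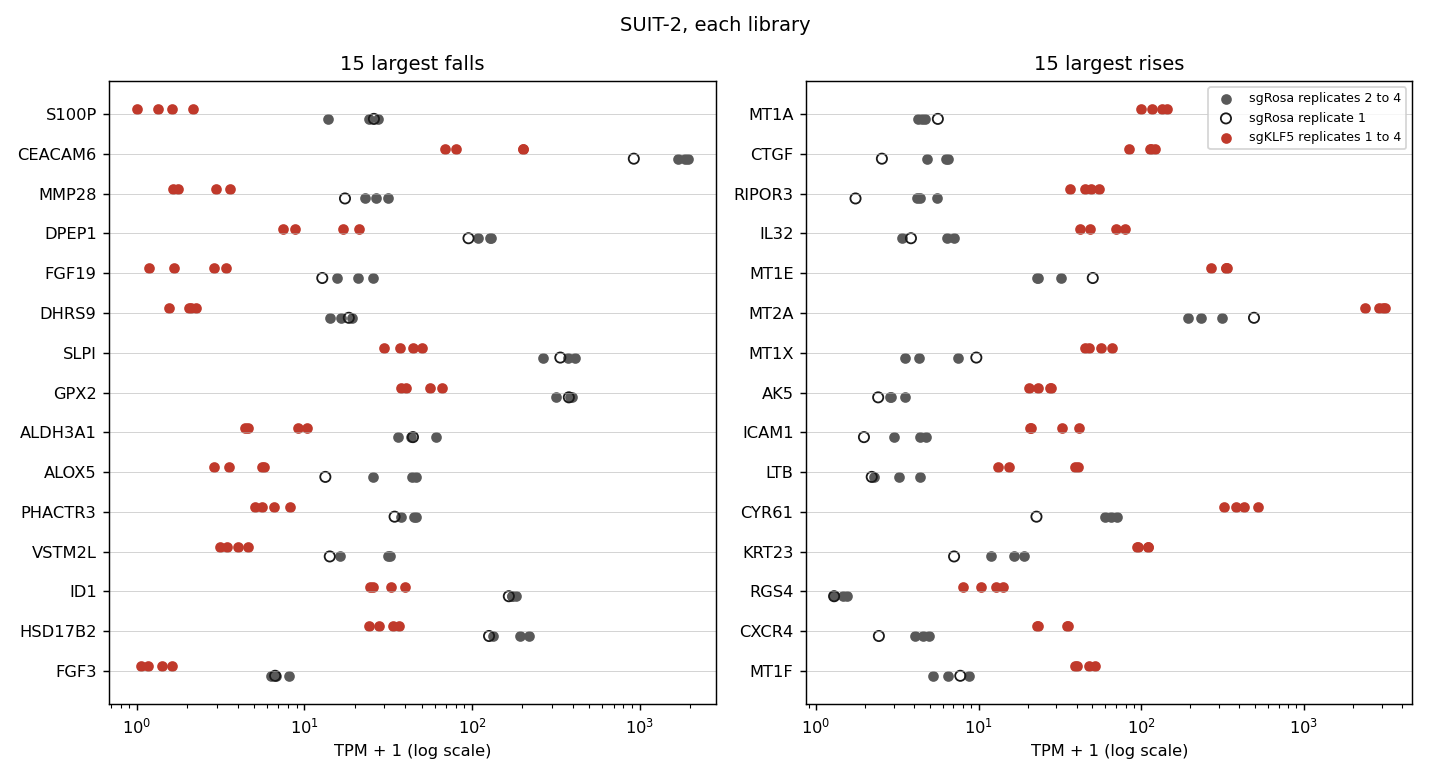
The horizontal axis is TPM + 1 on a log scale, each point is 1 library (red for sgKLF5, grey for sgRosa, open circle for sgRosa replicate 1), and rows are the 15 genes with the largest fall (left) and the largest rise (right) among those past the threshold with and without sgRosa replicate 1. Genes were also required to have all 4 sgKLF5 libraries apart from the 4 sgRosa libraries, so that separation is not a result. sgRosa replicate 1 is the lowest control of CTGF, RIPOR3, ICAM1 and CYR61, among others.

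Markers of the classical subtype of pancreatic cancer fell more often than they rose. Of 22 secreted and surface markers of classical tumors, 11 were tested, and 7 fell while 0 rose (9 and 0 without sgRosa replicate 1). Their median log2 fold change was -0.97 (-1.15 without sgRosa replicate 1), against 0.18 (0.03) for all genes. SPINK4, a goblet cell peptide, fell by 2.35 on the log2 scale (0 to 2.46 TPM in sgKLF5 against 5.76 to 12.4 TPM in sgRosa), LYZ, lysozyme, fell by 2.09 (3.99 to 5.47 TPM in sgKLF5 against 16.1 to 34.2 TPM in sgRosa), and CAPN8, a calpain of gastric mucus cells, fell by 1.91 (10.7 to 18.2 TPM in sgKLF5 against 32.1 to 84.8 TPM in sgRosa). LCN2, an iron-trapping lipocalin and one of the abundant transcripts of the line, was at 466, 477, 432 and 415 TPM in sgKLF5 replicates 1 to 4 and 1181, 924, 1632 and 1734 TPM in sgRosa replicates 1 to 4. The sgKLF5 libraries were nearly equal and under every control, a log2 fold change of -1.57 (SE 0.19, adjusted p = 0.00239). AGR2, a disulfide isomerase needed for mucin secretion, was at 193 to 255 TPM in sgKLF5 against 351 to 473 TPM in sgRosa and fell by 0.93. The other 2 that fell were ANXA10 and LGALS4, whose calls were lost with at least 1 library left out.

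Of the CEACAM adhesion molecules, 4 were tested and 2 fell, CEACAM6 and CEACAM5. CEACAM5 (carcinoembryonic antigen) was at 0.347 to 1.72 TPM in sgKLF5 against 3.45 to 15.03 TPM in sgRosa, a log2 fold change of -2.28 (SE 0.43, adjusted p = 0.0198). The pair share much of their sequence, so the division of reads between them is uncertain. Of 4 tested mucins and trefoil factors, only TFF2, a trefoil peptide of gastric mucus, passed, and it rose by 1.04 from 0.882 to 2.47 TPM to 2.76 to 4.97. Without sgRosa replicate 1, 1 of the 4 rose and 1 fell. The median of the 4 was -0.39 (-0.87 without sgRosa replicate 1). Of 12 tested brush border genes, VILL, a villin-like actin-binding protein, fell (-1.91) and ESPN, the actin bundler espin, rose (0.99), and without sgRosa replicate 1 the counts were 4 lower and 1 higher. CEACAM5, TFF2 and ESPN each lost the call with at least 1 library left out, TFF2 also with scaling, where its log2 fold change was 0.85.

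In the Moffitt Classical signature, a list derived from tumors of that subtype, 146 genes were tested, of which 21 fell and 4 rose (38 and 6 without sgRosa replicate 1). The median was -0.06 (-0.22 without sgRosa replicate 1). The members with the largest change were CEACAM6, GPX2 and HSD17B2, followed by PPP1R1B, the phosphatase inhibitor DARPP-32, at 11.2 to 28.9 TPM in sgKLF5 against 70.8 to 156 TPM in sgRosa and a log2 fold change of -2.41 (SE 0.36, adjusted p = 0.00689). The 4 that rose were PROM1, TMEM98, PDZK1IP1 and TFF2, and the last pair lost the call with at least 1 library left out. In the Moffitt Basal-like signature, the counterpart list, 129 genes were tested and moved both ways: 12 fell and 9 rose (26 and 16 without sgRosa replicate 1), with a median of 0.06 (-0.14 without sgRosa replicate 1). DHRS9, PHACTR3, VSTM2L and DKK1 had the largest changes there, the last of them upward.

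Keratins split. Of 9 tested simple epithelial keratins and pan-epithelial markers, KRT19 fell and KRT23 and KRT80 rose. KRT19, the keratin of pancreatic ducts, was at 1198, 1244, 1169.9 and 1439.5 TPM in sgKLF5 replicates 1 to 4 and 2719.5, 2908, 2728 and 2423 TPM in sgRosa replicates 1 to 4. The groups were far apart relative to the spread within each, and the log2 fold change was -1.09 (SE 0.10, adjusted p = 0.000624). KRT23 was at 109, 109, 93.9 and 92.9 TPM in sgKLF5 replicates 1 to 4 and 6.06, 10.9, 18.1 and 15.4 TPM in sgRosa replicates 1 to 4, a log2 fold change of 3.0 (SE 0.29, adjusted p = 0.000687) and 2.71 without sgRosa replicate 1. KRT80 rose by 1.38, a call lost with at least 1 library left out. KRT8 and KRT18 had log2 fold changes of -0.46 and -0.26, short of the threshold, and KRT8 passed it without sgRosa replicate 1 (-0.61, adjusted p = 0.0154). Only 2 stratified epithelial keratins were expressed enough to be tested, and KRT13 fell (0.114 to 1.14 TPM in sgKLF5 against 2.202 to 7.24 TPM in sgRosa), with a log2 fold change of -1.87 (SE 0.35, adjusted p = 0.0184) that also lost its call with at least 1 library left out.

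Of 11 tested S100 proteins, calcium-binding proteins of the EF-hand type, 5 fell and 0 rose, with a median of -0.80. Without sgRosa replicate 1, 6 fell and 0 rose, with a median of -0.70. S100A6 (calcyclin) was at 1362, 1473, 1434 and 1832 TPM in sgKLF5 replicates 1 to 4 and 6922, 4627, 5270.2 and 5005 TPM in sgRosa replicates 1 to 4. It was among the most abundant transcripts in controls, where sgRosa replicate 1 was highest, and its log2 fold change was -1.83 (SE 0.15, adjusted p = 0.000255). S100A4, a calcium-binding protein linked to motility that also stands in the list of mesenchymal genes, was at 16.5 to 21.6 TPM in sgKLF5 against 84.9 to 120.1 TPM in sgRosa, a log2 fold change of -2.28 (SE 0.16, adjusted p = 0.000159). S100A14 fell by 1.73 and S100A11 also passed. Among 5 tested clade B serpins 2 fell, SERPINB5 (maspin, 20.3 to 24.9 TPM in sgKLF5 against 38.6 to 69.4 TPM in sgRosa, -1.34) and SERPINB1 (-0.59), and among 5 tested kallikrein-related peptidases KLK10 fell (12.96 to 21.3 TPM in sgKLF5 against 58.99 to 111 TPM in sgRosa, -2.22 (SE 0.24, adjusted p = 0.00157)).

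Of 10 tested laminin-332 and hemidesmosome genes 0 passed in limma (4 at an unadjusted p under 0.05), against 4 lower without sgRosa replicate 1. ITGB4, the hemidesmosomal integrin subunit, was at 138, 88.5, 191 and 218 TPM in sgKLF5 replicates 1 to 4 and 195, 685, 794 and 825 TPM in sgRosa replicates 1 to 4. The one control that overlapped sgKLF5 was replicate 1, and the log2 fold change was -1.85, adjusted p = 0.064 with it and -2.34, adjusted p = 0.00333 without it. ITGB1 was at 817 to 2209 TPM in sgKLF5 against 1190.5 to 2361 TPM in sgRosa and had a log2 fold change of -0.22, adjusted p = 0.775. Of 8 desmosome genes, PERP fell (315 to 331 TPM in sgKLF5 against 411 to 627 TPM in sgRosa, -0.72). Of 19 tested claudins and tight junction genes 0 passed in limma (5 at an unadjusted p under 0.05), and the 2 most abundant, CLDN2 and CLDN4, had log2 fold changes of 0.65 and 0.33. Without sgRosa replicate 1, 3 of 20 rose and 2 fell. Of 13 tested heparan sulfate proteoglycans and sulfatases, the extracellular sulfatase SULF2 fell (27.2 to 50.96 TPM in sgKLF5 against 74.95 to 275 TPM in sgRosa, -2.15 (SE 0.39, adjusted p = 0.017)), and without sgRosa replicate 1 there were 3 lower and 2 higher. SERPINB1, PERP and SULF2 lost the call with at least 1 library left out.

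Matrix metalloproteinases and their inhibitors, 14 tested, gave 1 fall, MMP28, and 2 rises from low levels, MMP10 (stromelysin-2, 2.44 to 4.52 TPM in sgKLF5 against 0.166 to 0.633 TPM in sgRosa) and the membrane-type MMP24 (2.72 to 4.19 TPM in sgKLF5 against 0.6205 to 1.12 TPM in sgRosa). In the tissue factor and plasminogen system, 1 of 12 tested genes passed, upward, against 4 lower and 2 higher without sgRosa replicate 1, and the median was 0.18 (0.13 without sgRosa replicate 1).

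The study lists direct KLF5 targets, genes with a KLF5 binding peak whose new transcripts fell soon after KLF5 was degraded in AsPC-1 or T3M-4 cells. These 8 libraries were not used to make the lists. Of the 69 listed from AsPC-1, 66 were tested in SUIT-2, where 12 fell and 0 rose, and without sgRosa replicate 1 43 fell and 1 rose. The median was -0.60 (-0.90 without sgRosa replicate 1), against 0.18 and 0.03 for all genes. FGF19, KLK10, SULF2 and EDAR, a receptor of the TNF family for ectodysplasin (11.3 to 22.7 TPM in sgKLF5 against 30.99 to 92.7 TPM in sgRosa, -1.97 (SE 0.37, adjusted p = 0.0189)), had the largest changes. Of the 92 listed from the basal-like line T3M-4, 69 were tested, 10 fell and 2 rose (34 and 4 without sgRosa replicate 1), with a median of -0.36 (-0.55 without sgRosa replicate 1). Its leading members were KLK10, FXYD3, a regulator of the sodium pump (3.28 to 9.49 TPM in sgKLF5 against 23.4 to 37.4 TPM in sgRosa, -2.09), the serine protease TMPRSS4 (6.08 to 9.902 TPM in sgKLF5 against 14.3 to 54.4 TPM in sgRosa, -2.01) and the cornified envelope protein SCEL (0.638 to 3.89 TPM in sgKLF5 against 8.02 to 12.7 TPM in sgRosa, -2.0). EDAR, TMPRSS4 and SCEL lost the call with at least 1 library left out. Genes that the study ties to KLF5 binding peaks typical of classical lines gave 16 falls and 17 rises among 512 tested. Without sgRosa replicate 1 there were 58 and 35. Those tied to basal-like peaks gave 11 falls and 27 rises among 611 (37 and 50 without that library). Over all genes tested 1.00% fell and 2.94% rose (3.19% and 6.63% without that library).

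**Figure D3:**
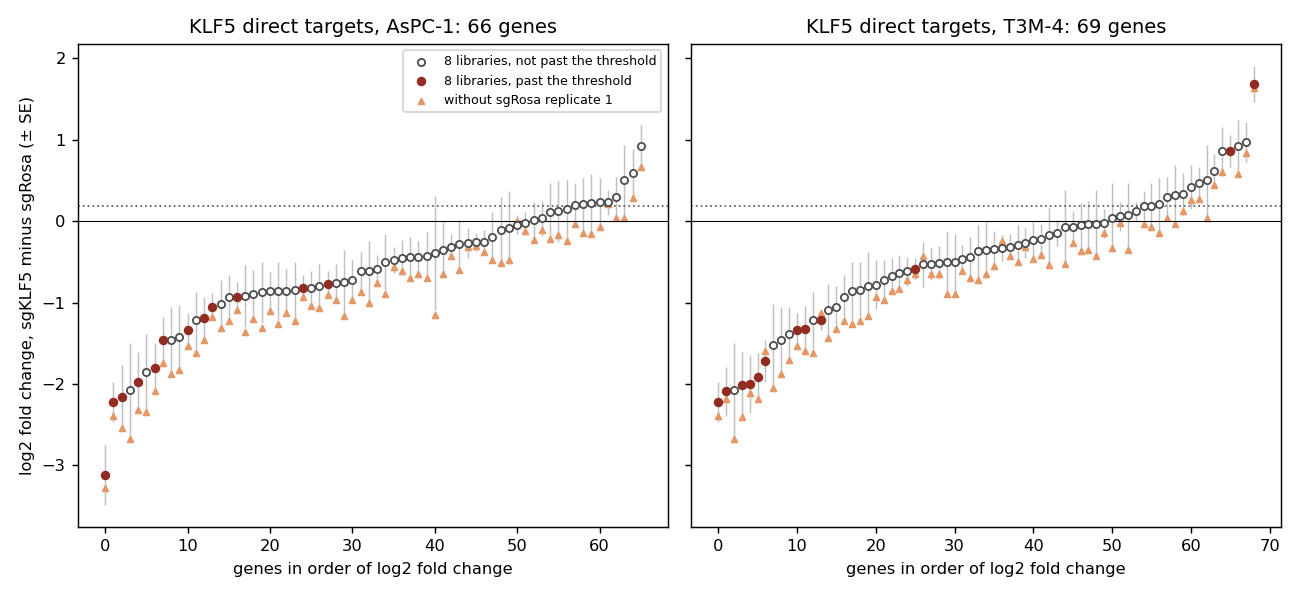
The vertical axis is the log2 fold change in SUIT-2 (sgKLF5 minus sgRosa, bars ± SE) of the direct KLF5 targets listed from AsPC-1 (left) and T3M-4 (right), ordered by value, with the median of all genes dotted. Filled points, 12 on the left and 12 on the right, pass the threshold with 8 libraries, and the triangles without sgRosa replicate 1 lie mostly lower.

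Counts of transcription factors are set beside the shares of all genes tested, 2.94% higher and 1.00% lower. Of 15 tested KLF and SP factors, KLF6 rose and KLF2 fell. KLF6, a ubiquitous family member, was at 48.3, 40.1, 35.5 and 34.4 TPM in sgKLF5 replicates 1 to 4 and 6.07, 16.3, 16.3 and 15.2 TPM in sgRosa replicates 1 to 4. All sgKLF5 libraries exceeded all controls, the log2 fold change was 1.56 (SE 0.30, adjusted p = 0.0213), and it was 1.25 without sgRosa replicate 1. KLF2, better known from endothelium and lymphocytes, was at 1.21 to 2.96 TPM in sgKLF5 against 6.45 to 9.37 TPM in sgRosa, a log2 fold change of -1.51 (SE 0.24, adjusted p = 0.00963). KLF6 lost the call without any one of sgKLF5 replicates 1 to 3 (adjusted p up to 0.0983) and KLF2 without sgKLF5 replicate 1 (adjusted p = 0.0526). KLF4, which often opposes KLF5 in the gut, was at 32.6 to 42.6 TPM in sgKLF5 against 10.4 to 31.7 TPM in sgRosa. Its log2 fold change in limma was 0.74, adjusted p = 0.282, and 0.41, adjusted p = 0.2 without sgRosa replicate 1, short of the threshold in both. All its sgKLF5 libraries lay above all controls, as they did in 15.4% of all genes tested. KLF3, KLF10, KLF13, KLF16, SP1 and SP3 had log2 fold changes of -0.51, 0.46, -0.53, 0.52, -0.14 and -0.36, and KLF13 passed as lower without sgRosa replicate 1 (-0.87, adjusted p = 0.00797).

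Of 15 tested endodermal transcription factors 0 passed in limma with 8 libraries (0 at an unadjusted p under 0.05), 1 was lower without sgRosa replicate 1, and their median was 0.22 (0.04 without sgRosa replicate 1). HNF4A, a nuclear receptor that defines classical tumors, was at 11.3, 8.55, 11.5 and 13.5 TPM in sgKLF5 replicates 1 to 4 and 7.45, 22.7, 21.4 and 18.99 TPM in sgRosa replicates 1 to 4. Replicate 1 was again the only control within or under the sgKLF5 range, so that the log2 fold change was -0.52, adjusted p = 0.491 with it and -0.86, adjusted p = 0.0153 without it. NR5A2, FOXA3, GATA6, SOX9 and ONECUT2 had log2 fold changes of 0.22, 0.27, 0.25, 0.55 and -0.22, with adjusted p from 0.476 to 0.858. Of 12 tested epithelial ETS, grainyhead and splicing regulators 0 passed in limma (3 at an unadjusted p under 0.05), against 1 lower and 2 higher without sgRosa replicate 1. ELF3, an epithelial ETS factor, was at 88.2, 72.4, 92.2 and 114 TPM in sgKLF5 replicates 1 to 4 and 91.9, 174, 218 and 208 TPM in sgRosa replicates 1 to 4. Its difference on the log2 scale was -0.85, adjusted p = 0.139 and became -1.13, adjusted p = 0.00471 without sgRosa replicate 1, while its relative EHF was at -0.54.

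Of 24 tested NRF2-type antioxidant genes, 4 fell (GPX2, AKR1B10, FTH1 and AKR1C3) and ABCC2 rose, against 6 and 2 without sgRosa replicate 1, and the median was 0.24 (0.17 without sgRosa replicate 1). AKR1B10, an aldo-keto reductase of retinal and aldehydes, was at 6.57, 5.75, 9.48 and 10.8 TPM in sgKLF5 replicates 1 to 4 and 32.2, 36.3, 29.6 and 33.5 TPM in sgRosa replicates 1 to 4. The controls were close together and the log2 fold change was -1.92 (SE 0.22, adjusted p = 0.0018). FTH1, the ferritin heavy chain, went from 3449.5 to 5215 TPM in controls to 1109.5 to 2217 (-1.38), and ABCC2, an export pump for conjugated compounds, from 1.21 to 2.48 to 6.02 to 8.44 (1.44). Of 23 tested cytochrome P450 and UGT enzymes, 3 fell and 1 rose (6 and 2 of 22 without sgRosa replicate 1). The fatty acid hydroxylases CYP4F3 and CYP4F12 fell (-2.25 and -1.96), as did the drug-metabolizing CYP3A5 (-1.36), and the sterol 27-hydroxylase CYP27A1 rose by 1.74 (23.6 to 33.3 TPM in sgKLF5 against 4.197 to 12.2 TPM in sgRosa). Several of these genes have near-identical relatives or processed copies, among which reads may be divided. AKR1C3, CYP4F3, CYP3A5 and CYP27A1 lost the call with at least 1 library left out.

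Among the largest rises were those of the metallothioneins, small cysteine-rich proteins that bind zinc, copper and cadmium and are induced through the metal-sensing factor MTF1 and by glucocorticoids. The list was drawn up after the values were seen. Of its 12 genes, 6 were tested and all 6 rose, with log2 fold changes from 2.58 to 4.70, and 6 rose as well without sgRosa replicate 1. MT1A was at 144, 134, 98.9 and 116 TPM in sgKLF5 replicates 1 to 4 and 4.61, 3.67, 3.26 and 3.51 TPM in sgRosa replicates 1 to 4. Its groups did not overlap, which was a condition of its choice, and the log2 fold change was 4.7 (SE 0.18, adjusted p = 5.49e-06). MT2A, the main metallothionein, was at 3146, 3071, 2359 and 2877 TPM in sgKLF5 replicates 1 to 4 and 492, 313, 231 and 192 TPM in sgRosa replicates 1 to 4. It was highest among controls in sgRosa replicate 1, and its log2 fold change was 3.3 (SE 0.26, adjusted p = 0.000245) with that library and 3.56 without it. MT1E rose from 21.9 to 49.3 to 268 to 333 TPM (3.37), MT1X from 2.51 to 8.67 to 43.9 to 64.8 (3.21), MT1F from 4.23 to 7.75 to 38.1 to 51 (2.68) and MT1M from 0.933 to 1.76 to 9.297 to 15.1 (2.58). These genes sit in one cluster on chromosome 16, MT2A at 56608584 to 56609497 and MT1X at 56682470 to 56684196 (GRCh38, GENCODE), and they are so alike that the division of reads between them is uncertain.

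The promoters of MT2A and MT1X are printed since members of this cluster moved together. Again 250 bases before the RefSeq start are given on the strand of the gene (GRCh38.p14). Capitals mark the motif TGCNCNC, a loose form of the core of the metal response element, or its reverse complement GNGNGCA.
MT2A (chr16:56608334-56608583, plus strand): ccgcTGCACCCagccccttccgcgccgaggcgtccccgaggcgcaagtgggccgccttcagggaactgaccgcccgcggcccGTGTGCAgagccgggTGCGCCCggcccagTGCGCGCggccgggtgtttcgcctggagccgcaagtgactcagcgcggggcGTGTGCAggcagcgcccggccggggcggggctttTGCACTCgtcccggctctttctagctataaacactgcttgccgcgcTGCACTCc
MT1X (chr16:56682220-56682469, plus strand): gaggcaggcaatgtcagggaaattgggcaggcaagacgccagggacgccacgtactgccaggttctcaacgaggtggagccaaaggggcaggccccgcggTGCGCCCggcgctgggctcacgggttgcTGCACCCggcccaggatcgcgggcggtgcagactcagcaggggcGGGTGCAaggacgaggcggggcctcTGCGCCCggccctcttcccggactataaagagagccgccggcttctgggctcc
MT2A holds 7 copies that do not overlap and MT1X holds 4. A single copy of this short motif is common, being found in 48.4% of the 27305 promoters, while at least 4 copies occurred in 1.4% of them. Of the 10176 tested genes with a promoter, 56.4% held at least 1 copy and 1.6% at least 4. Among the higher genes 6 of 275 promoters held at least 4 (2.2%), and among the lower genes 2 of 90 (2.2%).

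CTGF and CYR61 (current symbols CCN2 and CCN1), matricellular proteins that are common readouts of the YAP and TAZ coactivators, rose strongly. CTGF was at 120.3, 82.98, 112 and 114 TPM in sgKLF5 replicates 1 to 4 and 1.54, 3.83, 5.27 and 5.46 TPM in sgRosa replicates 1 to 4, a log2 fold change of 4.51 (SE 0.30, adjusted p = 0.000116), and of 4.21 without sgRosa replicate 1, its lowest library. CYR61 was at 522, 320.3, 383 and 429 TPM in sgKLF5 replicates 1 to 4 and 21.7, 70.3, 64.4 and 58.9 TPM in sgRosa replicates 1 to 4, a log2 fold change of 3.02 (SE 0.34, adjusted p = 0.0018) and 2.64 without that library. A list of 26 YAP/TAZ-TEAD target genes was also drawn up after the values were seen, and 24 were tested. Of these, 8 rose and 1 fell (10 and 2 without sgRosa replicate 1), with a median of 0.75 (0.33 without that library). THBS1, thrombospondin-1, rose by 2.58 (101 to 161 TPM in sgKLF5 against 9.75 to 31.7 TPM in sgRosa), ANKRD1 by 1.84, NUAK2 by 1.68, TGFB2 by 1.49, FJX1 by 1.39 and CCDC80 by 0.84, and the binding protein IGFBP3 fell by 1.11. TGFB2, FJX1, CCDC80 and IGFBP3 lost the call with at least 1 library left out. The list of 11 tested mesenchymal state genes gave 4 rises and 1 fall. They were CTGF, CYR61, LOX, a collagen cross-linking enzyme (8.61 to 18.1 TPM in sgKLF5 against 2.005 to 3.04 TPM in sgRosa, 2.1), and ACTA2, smooth muscle actin, as against S100A4. The defining mesenchymal genes did not pass, with VIM at 0.46 (adjusted p = 0.248), ZEB1 at -0.33 and CDH2 and FN1 under 1 TPM in every library.

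The promoter of CTGF is shown because TEAD factors, the DNA-binding partners of YAP, are known to act there. It is written as above, from the gene's strand, with the TEAD core GGAATG or its reverse complement CATTCC in capitals.
CTGF (chr6:131951373-131951622, minus strand): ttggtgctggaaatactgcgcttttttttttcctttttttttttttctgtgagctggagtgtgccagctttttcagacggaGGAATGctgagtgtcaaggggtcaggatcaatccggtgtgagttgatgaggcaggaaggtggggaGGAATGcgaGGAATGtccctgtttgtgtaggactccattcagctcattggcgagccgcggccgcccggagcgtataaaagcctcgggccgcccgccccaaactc
It holds 3 copies, with first bases at -169, -104 and -95. At least 1 copy was found in 11.9% of the 27305 promoters and at least 3 in 0.1%. Of the 10176 tested genes with a promoter, 9.5% held at least 1 copy and 0.1% at least 3. Of the promoters of higher genes 36 of 275 held 1 or more (13.1%), and of those of lower genes 7 of 90 (7.8%).

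Other large rises included RIPOR3 (35.3 to 54.2 TPM in sgKLF5 against 0.749 to 4.55 TPM in sgRosa, log2 fold change 3.65 (SE 0.35, adjusted p = 0.000672)), and AK5, an adenylate kinase (19.3 to 26.7 TPM in sgKLF5 against 1.41 to 2.54 TPM in sgRosa, 3.08 (SE 0.20, adjusted p = 0.000116)). RGS4, which ends G protein signaling, was at 7.01 to 13.1 TPM in sgKLF5 against 0.285 to 0.54 TPM in sgRosa and rose by 2.99. CXCR4, the receptor of the chemokine CXCL12, was at 34.1, 34.3, 22.2 and 21.9 TPM in sgKLF5 replicates 1 to 4 and 1.43, 3.56, 3.94 and 3.04 TPM in sgRosa replicates 1 to 4. Its groups were well separated and it rose by 2.88.

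Immune signaling genes formed another set of rises. IL32, an inflammatory cytokine, was at 78.8, 69.2, 41.1 and 47.6 TPM in sgKLF5 replicates 1 to 4 and 2.83, 6.02, 5.41 and 2.38 TPM in sgRosa replicates 1 to 4, a log2 fold change of 3.57 (SE 0.31, adjusted p = 0.000452). ICAM1, a ligand of leukocyte integrins, was at 40.4, 31.6, 19.6 and 19.8 TPM in sgKLF5 replicates 1 to 4 and 0.971, 2.04, 3.72 and 3.37 TPM in sgRosa replicates 1 to 4, and LTB, lymphotoxin beta, at 39.7, 38.1, 12.1 and 14.4 TPM in sgKLF5 replicates 1 to 4 and 1.2, 2.24, 3.39 and 1.27 TPM in sgRosa replicates 1 to 4. In both, sgKLF5 replicates 1 and 2 were higher than replicates 3 and 4, and all 4 exceeded the controls, a condition of their choice. The log2 fold changes were 3.05 (SE 0.34, adjusted p = 0.0018) and 3.04 (SE 0.43, adjusted p = 0.00513). They were 2.80 and 2.90 without sgRosa replicate 1. A list of 30 genes of the NF-kappaB pathway, drawn up after the values were seen, held 29 tested genes, of which 7 rose and 0 fell (11 and 1 without sgRosa replicate 1), with a median of 0.70 (0.40 without sgRosa replicate 1). Beside ICAM1 and LTB these were the acute-phase protein SAA1 (2.61), CD83 (1.24), the inhibitors NFKBIA (1.04) and NFKBIE (0.99), and the subunit RELB (0.99). CD83, NFKBIA, NFKBIE and RELB lost the call with at least 1 library left out. Of 17 tested tumor cell chemokines and cytokines, 4 rose and 0 fell (3 and 0 without sgRosa replicate 1). IL1A was at 1.25 to 9.33 TPM in sgKLF5 against 0.0497 to 0.227 TPM in sgRosa (2.2), IL23A at 7.54 to 14.9 TPM in sgKLF5 against 1.61 to 3.69 TPM in sgRosa (1.62) and the neutrophil chemokine CXCL8 at 2.04 to 6.98 TPM in sgKLF5 against 0.406 to 1.46 TPM in sgRosa (1.4). IL1A, IL23A and CXCL8 each lost the call with at least 1 library left out, CXCL8 also without sgRosa replicate 1.

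Of 20 tested HLA and antigen presentation genes, 5 rose and 0 fell (7 and 0 without sgRosa replicate 1, 6 and 0 with scaling). They belong mostly to class II: HLA-DRA (5.99 to 8.17 TPM in sgKLF5 against 1.57 to 3.103 TPM in sgRosa, 1.35 (SE 0.21, adjusted p = 0.00853)), HLA-DRB1 (1.27), HLA-DPA1 (1.13) and the invariant chain CD74 (128 to 176 TPM in sgKLF5 against 35.9 to 86.8 TPM in sgRosa, 1.28), with HLA-B of class I. Of 34 interferon-stimulated genes, 6 rose and 0 fell, among them the antiviral GTPase MX1 (22.2 to 29.7 TPM in sgKLF5 against 5.72 to 14.5 TPM in sgRosa, 1.38), IFI6 (1.24), IFI27 (1.09) and the exonuclease ISG20 (0.90). Without sgRosa replicate 1, 7 of the 34 rose and 1 fell. With scaling only 1 of the 34 rose and 1 fell. HLA-DPA1, CD74, HLA-B and all 4 of the interferon-stimulated genes named lost the call with at least 1 library left out.

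Some genes of growth factor signaling changed. In the EGF receptor family, 11 tested, NRG1, a ligand of ERBB3 and ERBB4, rose from 0.784 to 1.32 TPM to 6.57 to 12.9 (2.3 (SE 0.25, adjusted p = 0.00143)) and ERRFI1, an inhibitor of EGFR, from 71.2 to 216 to 357 to 478 (1.45). Of 20 MAPK feedback genes 4 rose and 1 fell (5 and 4 without sgRosa replicate 1). SPRY2, an inhibitor of receptor tyrosine kinase signaling, was at 61.7, 49.9, 52.01 and 55.1 TPM in sgKLF5 replicates 1 to 4 and 9.53, 19.1, 19.7 and 18.6 TPM in sgRosa replicates 1 to 4. Replicate 1 was the lowest control, and the log2 fold change was 1.7 (SE 0.23, adjusted p = 0.0045) with it and 1.46 without it. The phosphatases DUSP1 and DUSP10 rose by 1.66 and 0.90, IER3 rose as well, and EPHA4 fell by 1.43. Of 17 tested AP-1 and immediate early factors only JUN passed, rising from 7.39 to 19.6 TPM to 48.9 to 60.6 (1.77 (SE 0.28, adjusted p = 0.00955)). Without sgRosa replicate 1, 2 of these factors rose and 1 fell, and the log2 fold change of JUN was 1.47. In that fit ERRFI1 was at 1.08 and DUSP1 at 1.47. ERRFI1, EPHA4, DUSP10 and IER3 lost the call with at least 1 library left out.

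Of 14 tested LGR receptors and Wnt feedback genes, 3 rose and 2 fell. DKK1, a secreted inhibitor of Wnt signaling, was at 487, 483, 456 and 441 TPM in sgKLF5 replicates 1 to 4 and 73.7, 109.6, 101 and 84.7 TPM in sgRosa replicates 1 to 4. The sgKLF5 libraries were within a narrow band far above the controls, a log2 fold change of 2.34 (SE 0.14, adjusted p = 0.000116). PROM1 (CD133) rose by 2.29 (40.6 to 67.8 TPM in sgKLF5 against 5.15 to 14.6 TPM in sgRosa) and NKD2 also rose, while the stem cell receptor LGR6 (-1.61) and the Wnt inhibitor APCDD1 (-1.34) fell. Of 14 tested Notch genes, only the ligand DLL1 passed (0.71). Of 17 tested BMP and TGF-beta response genes, 2 rose, TGFB2 (11.2 to 19.6 TPM in sgKLF5 against 2.49 to 7.79 TPM in sgRosa, 1.49) and ID2 (54.7 to 74.5 TPM in sgKLF5 against 30.1 to 40.2 TPM in sgRosa, 0.75), and 2 fell, ID1 and the ligand BMP4 (29.1 to 40.5 TPM in sgKLF5 against 65.2 to 100.1 TPM in sgRosa, -1.29 (SE 0.17, adjusted p = 0.00388)). NKD2, LGR6, APCDD1, DLL1, TGFB2 and ID2 lost the call with at least 1 library left out, and ID2 also with scaling (0.49).

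The cell cycle lists gave no calls. Of 43 DNA replication genes 0 passed in limma (5 at an unadjusted p under 0.05, and 1 higher without sgRosa replicate 1), with a median of 0.26 (0.09 without sgRosa replicate 1), and of 39 mitosis and G2/M genes 0 passed in either fit (0 at an unadjusted p under 0.05), with a median of 0.04 (0.01 without sgRosa replicate 1). MCM7 and PCNA had log2 fold changes of 0.34 and 0.15, UBE2C and PTTG1 of 0.04 and 0.25. Among 26 tested p53 target genes 4 rose and 0 fell: the kinase PLK2 (219, 221, 207 and 194 TPM in sgKLF5 replicates 1 to 4 and 26.6, 55.6, 80.9 and 63.8 TPM in sgRosa replicates 1 to 4, 1.98 (SE 0.29, adjusted p = 0.00654)), the stress cytokine GDF15 (134 to 161 TPM in sgKLF5 against 49.7 to 77.3 TPM in sgRosa, 1.14), PHLDA3 (0.91) and the BH3-only protein BBC3 (0.85). PLK2 and GDF15 stayed past the threshold with any library left out, and PHLDA3 and BBC3 did not. Without sgRosa replicate 1, 5 of the 26 rose and 0 fell, and PLK2 rose by 1.66. Of 15 tested BCL2 family genes, BBC3 rose and BIK fell (-0.59). The call of BIK was lost with any library other than sgRosa replicate 1 left out, and with scaling.

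Of 34 tested glycolysis and hypoxia genes 4 rose and 0 fell, ADM (adrenomedullin, 15.7 to 24.8 TPM in sgKLF5 against 4.69 to 8.58 TPM in sgRosa, 1.48), BNIP3 (44.4 to 51.97 TPM in sgKLF5 against 13.7 to 21.8 TPM in sgRosa, 1.42), ANGPTL4 (1.11) and the glucose transporter SLC2A3 (0.84). Without sgRosa replicate 1, 11 rose and 4 fell. Of 29 cholesterol and fatty acid synthesis genes, only SQLE, squalene epoxidase, rose (0.75), against 7 without sgRosa replicate 1. ANGPTL4, SLC2A3 and SQLE lost the call with at least 1 library left out. The remaining lists gave 0 calls in limma: 23 tested genes of the integrated stress and unfolded protein response (SHMT2 at 0.21, ATF4 at 0.13), 27 of ribosome biogenesis (NPM1 at 0.02, NCL at 0.38, 1 higher without sgRosa replicate 1), 82 cytosolic ribosomal protein genes, 4 heat shock proteins (HSP90AB1 at 0.49, HSP90AA1 at -0.07) and 2 acinar markers (CELA3A at -0.21, PRSS1 at 0.29). At an unadjusted p under 0.05 they held, in this order, 1, 3, 0, 1 and 0 genes. Of 6 tested markers of leukocytes, fibroblasts and endothelium, LYZ alone fell (3 without sgRosa replicate 1), and it is also a marker of classical tumors.

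**Figure D4:**
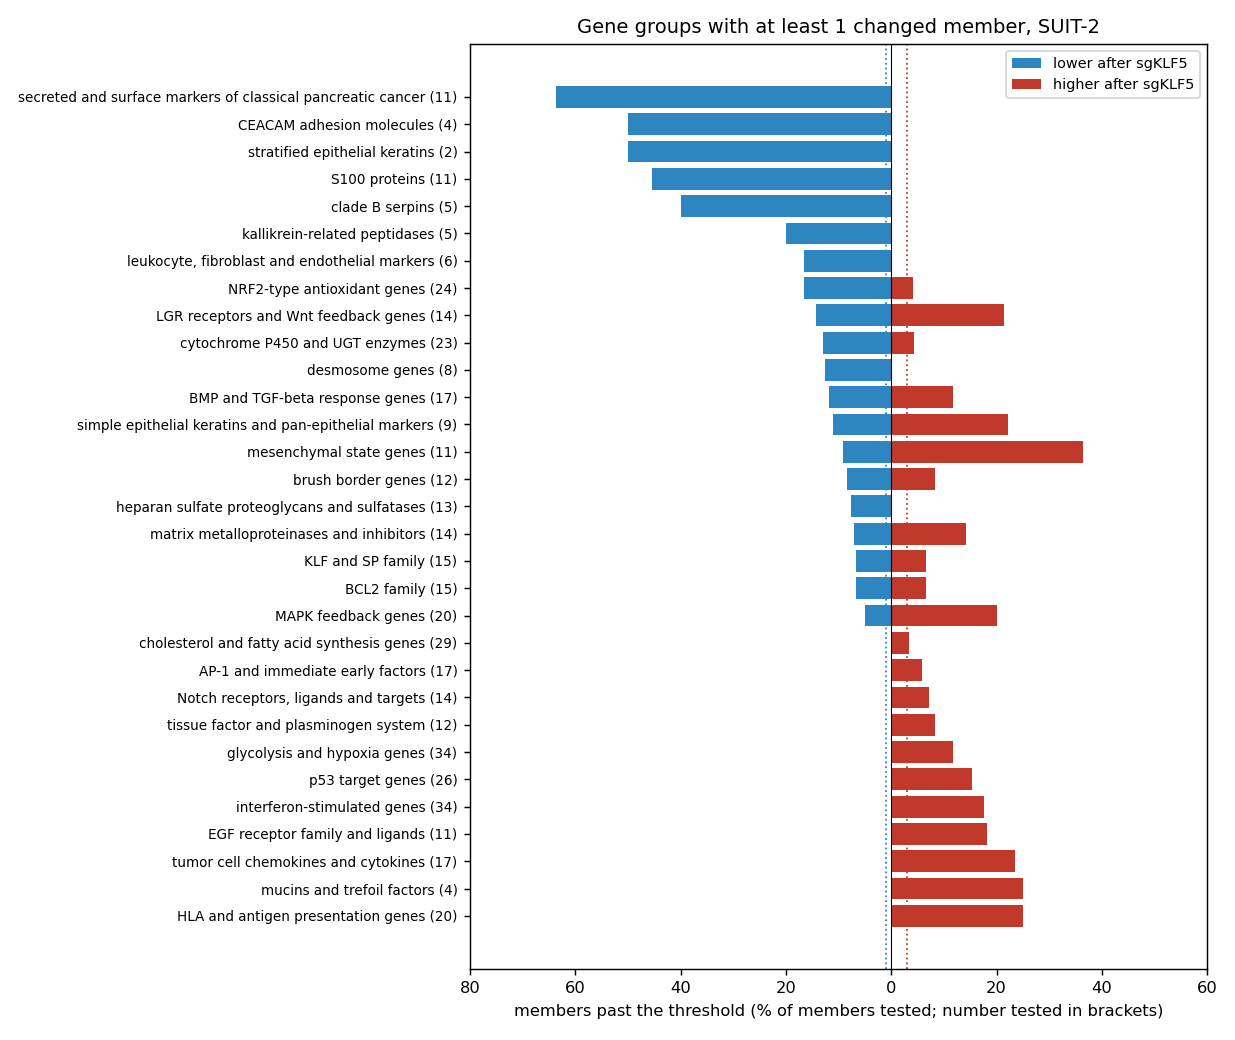
Bars give the share of tested members of each gene group that were lower (blue, to the left) or higher (red, to the right) at an adjusted p under 0.05 with all 8 libraries, and dotted lines mark the shares among all genes, 1.00% lower and 2.94% higher. Markers of classical tumors, CEACAM, S100 and clade B serpin genes lie wholly to the left, and HLA, cytokine, interferon and p53 genes wholly to the right.

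The 4 sgKLF5 libraries were not alike in the size of the fall. Of the 126 lower genes, sgKLF5 replicates 1 and 2 held the lowest 2 of the 4 sgKLF5 values in 81, and each of the other 5 pairs of libraries did so in 3 to 16. CEACAM6, with 67.7, 79.7, 202 and 199 TPM in replicates 1 to 4, FGF19 with 0.179, 0.661, 1.902 and 2.39 and ALDH3A1 with 3.58, 3.44, 8.17 and 9.29 show the difference. Among the 370 higher genes the highest 2 values belonged to replicates 1 and 2 in 119, to replicates 1 and 4 in 114 and to the other pairs in 16 to 57. This is a description with no test, and which guide each library received is not given in the labels.

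AsPC-1 is another classical pancreatic cancer line, and 2 of its KLF5 knockout experiments, also on day 5, can be set beside SUIT-2. Experiment 1 holds 6 sgKLF5 and 2 sgRosa libraries and experiment 3 holds 4 of each. None of these libraries is shared with SUIT-2. Of the 106 genes that fell in SUIT-2 and were tested in experiment 3 as well, 88 also fell there, which is 83.0% of the SUIT-2 list and 6.6% of the AsPC-1 list, while 5 rose. For experiment 1 it was 67 of 105 (63.8% and 6.9%), with 8 rising. Of the higher genes, 127 of 238 (53.4% of the SUIT-2 list, 6.4% of the AsPC-1 list) were also higher in experiment 3 and 144 of 237 (60.8% and 7.6%) in experiment 1. In AsPC-1 the lower genes made up 8.81% and the higher genes 17.1% of all genes tested in experiment 1, and 12.3% and 17.5% in experiment 3.

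The difference between the lines was tested as an interaction, the SUIT-2 log2 fold change minus that of AsPC-1. It passed the threshold in 651 of 12619 genes (5.16%) with experiment 1 and in 770 of 12712 (6.06%) with experiment 3. Among genes averaging at least 5 TPM in both lines, metallothioneins had the largest positive differences in both. For MT1A the difference was 5.0 (SE 0.61, adjusted p = 8.04e-05) and 4.64 (SE 0.47, adjusted p = 1.56e-05), and for MT2A 3.88 (SE 0.40, adjusted p = 1.37e-05) and 3.15 (SE 0.34, adjusted p = 3.1e-05). MT2A in AsPC-1 was 348 ± 109.9 TPM (SD, n = 6) in sgKLF5 and 501 ± 12.6 (SD, n = 2) in sgRosa of experiment 1, and 223 ± 12.4 against 206 ± 56.8 (SD, n = 4 each) in experiment 3. In experiment 1, 3 of the 6 metallothioneins fell in AsPC-1, MT1X by 0.64, MT1E by 0.61 and MT1F by 0.52 on the log2 scale, and in experiment 3 the log2 fold changes of these 3, MT1A and MT2A ran from 0.06 to 0.38, with adjusted p of 0.161 or more in limma. MT1E and MT1X differed by 3.98 and 3.85 with experiment 1 and by 3.21 and 2.92 with experiment 3. The sgRosa level of MT1E was lower in SUIT-2 (21.9 to 49.3 TPM) than in either AsPC-1 experiment (433 to 463 and 222 to 348 TPM), a comparison of levels across separately deposited tables.

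Under the same limit AGR2 had the largest difference in the other direction. In AsPC-1, experiment 1 gave 18.6 ± 2.04 TPM in controls (SD, n = 2) and 541 ± 35.6 TPM in sgKLF5 (SD, n = 6). It rose by 4.12 on the log2 scale in experiment 3 and fell by 0.93 in SUIT-2, so that the differences were -5.71 (SE 0.17, adjusted p = 5.37e-12) and -5.05 (SE 0.28, adjusted p = 6.53e-08). TSPAN8, a tetraspanin of classical tumors, differed by -3.74 (SE 0.27, adjusted p = 5.35e-07) with experiment 1. In SUIT-2 its sgKLF5 mean was 107 ± 25.8 TPM (SD, n = 4) and its sgRosa mean 205 ± 52.1 TPM (SD, n = 4), a difference short of the threshold (-0.94, adjusted p = 0.0651). In AsPC-1 TSPAN8 rose by 2.8 in experiment 1 and by 1.63 in experiment 3, where the difference between the lines was -2.57. CEACAM6 fell in SUIT-2 but in AsPC-1 its values were 0.01 and -0.06 on the log2 scale, short of the threshold, and the differences were -3.67 (SE 0.48, adjusted p = 0.00016) and -3.6 (SE 0.44, adjusted p = 0.000101). For S100P the difference was -3.84 (SE 0.48, adjusted p = 0.0001) with experiment 1, where its sgKLF5 libraries ranged from 22.6 to 62.4 TPM and its AsPC-1 value was -0.08. In experiment 3 S100P fell in AsPC-1 too (-1.25, adjusted p = 0.0136), and the difference was -2.67 (adjusted p = 0.00233). DHRS9 and AKR1B10 differed by -3.41 (SE 0.20, adjusted p = 7.08e-08) and -3.1 (SE 0.23, adjusted p = 6.12e-07) with experiment 3, where they rose in AsPC-1 by 0.29 and 1.18. With experiment 1 they differed by -2.53 and -3.55, and there DHRS9 fell in AsPC-1 by 0.59 while AKR1B10 rose by 1.63. MMP28, DPEP1, ALOX5 and ID1 fell in SUIT-2 and in both AsPC-1 experiments, with AsPC-1 log2 fold changes of -2.18 and -2.65, -2.74 and -2.44, -1.42 and -1.75, and -1.6 and -1.52. CTGF and CYR61 rose in all of them (1.83 and 2.57 for CTGF, 0.99 and 1.36 for CYR61).

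**Figure D5:**
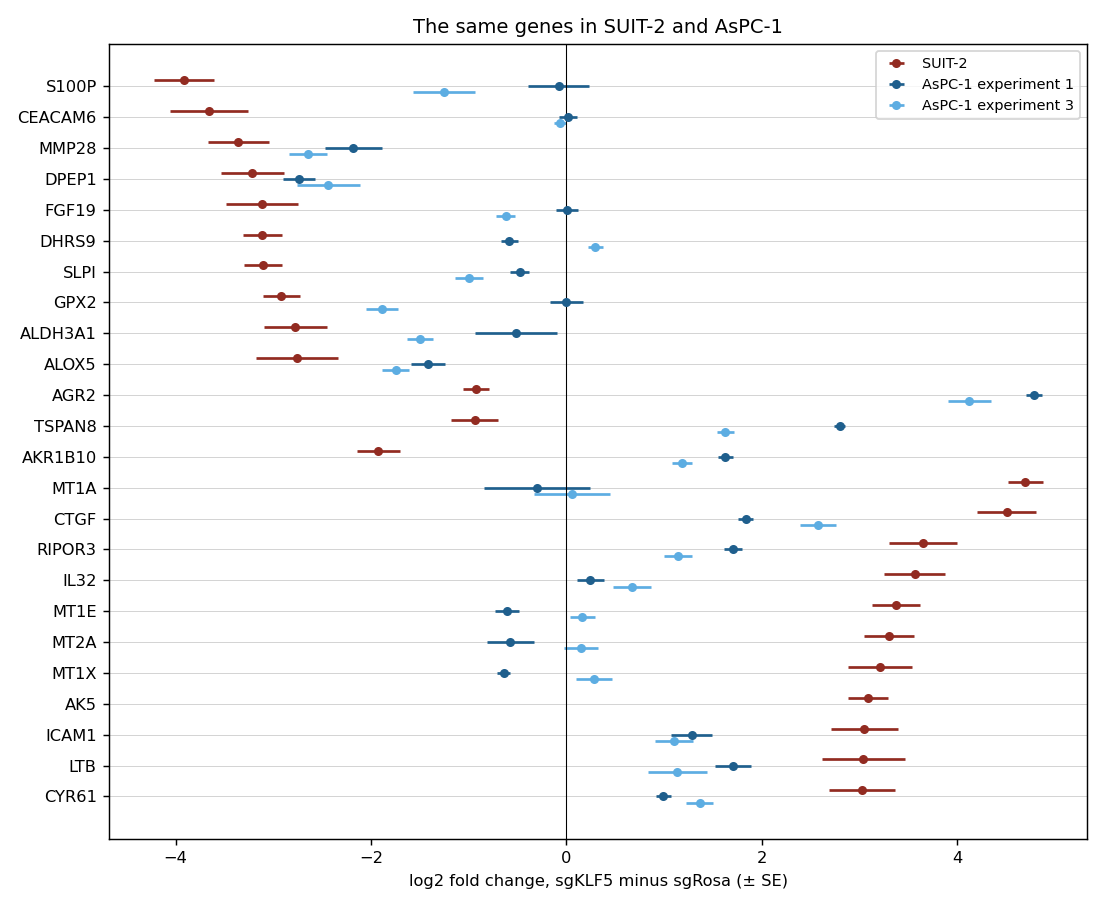
The horizontal axis is the log2 fold change (sgKLF5 minus sgRosa, bars ± SE) of SUIT-2 (red) and of AsPC-1 experiments 1 (dark blue) and 3 (light blue), with the 10 largest falls at the top, AGR2, TSPAN8 and AKR1B10 below them, and 11 of the largest rises at the bottom. The metallothioneins plotted rose and CEACAM6 fell in SUIT-2, and in AsPC-1 they lie between -0.64 and 0.28, with MT1X and MT1E past the threshold as lower in experiment 1, AGR2 lies on opposite sides, and AK5 was not tested in AsPC-1.

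Over all genes tested, 8.81% and 12.3% fell and 17.1% and 17.5% rose in AsPC-1 experiments 1 and 3. In SUIT-2 1.00% fell, so that 0 calls in a list is near that share. The interaction passed for 5.16% and 6.06% of all genes. Of the 43 DNA replication genes, 32 fell in experiment 1 and 20 in experiment 3, against 0 in SUIT-2. The interaction passed the threshold for 12 and 10 of these genes. Of the 39 mitosis and G2/M genes, 8 and 7 fell in AsPC-1 and 0 in SUIT-2, and the interaction passed for 1 and 0. Of 11 S100 proteins 8 and 10 fell in AsPC-1 and 5 in SUIT-2, with the interaction past the threshold for 5 and 4. The interaction passed for 6 of 6 tested metallothioneins in both experiments and for 5 of the secreted and surface classical markers in each. Of the 9 of these markers tested in AsPC-1, 5 rose and 2 fell in experiment 1 and 4 rose and 5 fell in experiment 3.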

How the data were processed

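SUIT-2 cells expressing Cas9 were profiled by poly-A RNA sequencing in 4 sgKLF5 and 4 sgRosa libraries. The authors quantified single-end reads against hg38 by pseudo-alignment in kallisto, dropped scarce transcripts, obtained gene values through tximport and deposited TPM for 19875 gene names per table, of which 18748 match a current symbol, 586 an older one and 541 none. Names that match none could not be matched to lists. Most heat shock genes are among them, since they stand under family names that do not say which gene is meant. The 4 control columns are spelled STUI2 in the table, were read as SUIT2 and were matched to the sample titles.

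Genes averaging at least 1 TPM were taken to log2(TPM + 1) and fitted by limma 3.58.1 under R 4.3.3, with a mean-dependent prior for the variance, and adjusted p-values (Benjamini-Hochberg over all genes) under 0.05 were called. The study tested counts. TPM are not counts, so limma took the place of a count test and depth is unknown. Lists of 41 gene groups, the study's subtype and target lists, and 4 lists added after values were seen (metallothioneins, YAP/TAZ-TEAD, NF-kappaB, ribosomal proteins) are described by counts and medians. The genes and lists were chosen with earlier results of these data known. Named are KLF5, the 15 largest falls and rises past the threshold with and without sgRosa replicate 1 whose groups do not overlap, up to 4 called members of each list (otherwise the 2 most abundant), 4 interaction genes in each direction per AsPC-1 experiment with a mean of at least 5 TPM in both lines, and KLF and endodermal factors with a mean of at least 10 TPM. Further names were chosen after their values were seen. The script was tested on simulated data. Alternatives were a pseudocount of 0.1, other filters, median-of-ratios scaling, a replicate block, array weights and leaving out each library. Promoter sequences are RefSeq's (GRCh38.p14), and coordinates of genes are GENCODE's. Guide sequences are not analysed here, and some genes that the rule names are not reported here.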

Additional observations from a re-analysis of the deposited data

Results flagged for a closer look

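Of 286 groups of 4 libraries examined, 29 had 1 library far from the other 3 by Dixon's criterion at the 95% level, which chance gives in about 1 in 20 groups. Most came from sgRosa replicate 1. It was the lowest control, in TPM, for CYR61 (21.7), KLF6 (6.07), SERPINB5 (38.6), ITGB1 (1190), ITGB4 (195), FTH1 (3449), NRG1 (0.785), ERRFI1 (71.2), SPRY2 (9.53), DUSP1 (1.38), JUN (7.39), ID2 (30.1), IL23A (1.61), NCL (261), KLF10 (13.4), KLF13 (6.0), KLF16 (7.16), HNF4A (7.45) and GATA6 (6.52). The same library stood apart in LOC112268284 (34988 TPM), in the share of TPM taken by MTRNR2L genes (4.02%) and in its upper quartile (15.8 TPM).

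The others were spread over libraries. sgKLF5 replicate 4 was lowest for NR5A2 (22.6 TPM), EHF (37.5 TPM) and TSPAN8 (68.4 TPM), sgKLF5 replicate 2 for MMP24 (2.72 TPM) and KLF13 (7.06 TPM) and sgKLF5 replicate 3 for MT1E (268 TPM), while sgRosa replicate 3 was highest for HLA-DRB1 (3.34 TPM).

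The effect of KLF5 knockout differed between SUIT-2 and AsPC-1 by the interaction test in limma for the genes named in that comparison. With experiment 1 the log2 differences were 5.0 for MT1A, 3.98 for MT1E, 3.88 for MT2A, 3.85 for MT1X, -5.71 for AGR2, -3.84 for S100P, -3.74 for TSPAN8 and -3.67 for CEACAM6. With experiment 3 they were 4.64 for MT1A, 3.21 for MT1E, 3.15 for MT2A, 2.92 for MT1X, -5.05 for AGR2, -3.60 for CEACAM6, -3.41 for DHRS9 and -3.10 for AKR1B10. All 16 differences stayed past the threshold with any single library left out, sgRosa replicate 1 of SUIT-2 included. The cell line and the experiment cannot be told apart in these comparisons.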

How the results depend on the processing

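The count of changed genes depended strongly on the setting, and read depth, which TPM do not hold, could not be used to weigh the libraries. Against 496 genes, a minimum mean of 5 TPM gave 271, scaling 831, array weights 4434, and scaling without sgRosa replicate 1 1152. The array weights were very uneven, from 0.049 for sgRosa replicate 1 to 11.8 for sgRosa replicate 3. In sgKLF5 they ran from 0.266 for replicate 4 to 4.11 for replicate 1, so that fit rests mainly on few libraries. Leaving out 1 library gave 164 to 1239 genes: 164, 230 and 233 without sgKLF5 replicates 1, 2 and 3, and 1239, 257, 320 and 262 without sgRosa replicates 1 to 4. The interaction with AsPC-1 experiment 1, 651 genes, became 1161 with scaling, 3790 with weights and 300 to 1496 with 1 library left out (1496 without SUIT-2 sgRosa replicate 1, 304 and 300 without AsPC-1 sgRosa replicates 1 and 2). With experiment 3, 770 genes became 498 at 5 TPM, 1233 with scaling, 3993 with weights and at most 1488 (without SUIT-2 sgRosa replicate 1) and at least 532 with 1 library left out. The cause was not tested.

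With the replicate number as a block 153 genes passed. Same-numbered libraries correlated at -0.33, -0.40, 0.14 and -0.25, so the numbers did not pair them, and not every library correlated best with its own number. Of 104 named genes past the threshold, 64 passed with any library left out. The other 40 all lost the call without sgKLF5 replicate 1. In the fits with 1 library left out, SERPINB1, CYP3A5, EPHA4, DUSP10, LGR6, APCDD1 and DLL1 kept the call only without sgRosa replicate 1. So did ID2, ISG20, SQLE, ANGPTL4, PHLDA3, BBC3 and BIK. In the same direction, 94 of the 104 passed with scaling, 69 with the block, 91 with a pseudocount of 0.1 and 97 without a filter. All 104 passed with array weights, a fit that rests mainly on few libraries.

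Signs changed only for genes short of the threshold. With scaling the log2 fold changes were -0.03 for NR5A2, -0.11 for PCNA, -0.22 for UBE2C, -0.01 for PTTG1, -0.05 for SHMT2, -0.13 for ATF4 and -0.24 for NPM1, and with scaling without sgRosa replicate 1 -0.04 for NR5A2, ATF4 and NPM1 and -0.02 for GATA6. Array weights gave 0.05 for CELA3A. With 1 library left out, the values ran from -0.44 to 0.12 for ITGB1, -0.50 to 0.66 for HSP90AA1, -0.57 to 0.05 for SP3, -0.62 to 0.21 for ONECUT2, -0.04 to 0.15 for NPM1, -0.11 to 0.21 for UBE2C, -0.42 to 0.01 for SP1 and -0.02 to 0.51 for PRSS1. sgKLF5 replicate 4 was the library whose removal turned the sign for ITGB1 and SP3, and, with sgRosa replicates 3 or 4, for HSP90AA1 (0.00 and 0.04) and, with sgRosa replicate 4 (0.03), for ONECUT2. NPM1 turned without sgKLF5 replicates 2 or 3 or sgRosa replicates 3 or 4 (-0.01 to -0.04), UBE2C without sgRosa replicates 3 or 4 (-0.10 and -0.11), SP1 without sgRosa replicate 4 and PRSS1 without sgRosa replicate 2.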
